A study of Mus musculus with 6 samples.

Results

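The genes described here encode the heterotrimeric G proteins, which carry signals from cell-surface receptors, and the regulators of G protein signalling (Rgs), which end those signals. They were followed in the prostate of male C57BL/6 mice with and without hormone treatment. Members were chosen by gene symbol, as every row of the deposited expression table named as a Gα, Gβ or Gγ subunit or as a numbered Rgs gene. This gave 54 of the 34745 genes in the table, of which 16 encode Gα subunits, 5 Gβ subunits, 12 Gγ subunits and 21 Rgs proteins. The family was proposed when differences between these same mice were already known, so counts over the family describe it and test nothing.

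The T + E2 group consisted of 3 mice that carried a pellet under the skin releasing testosterone and oestradiol, renewed each month, over 12 weeks. The CON group consisted of 3 mice that had the skin incision and its closure without hormone. All were young adults of the same strain when the experiment began, with no engineered allele named, and kept their own testes. RNA came from bulk prostate tissue, 1 mouse per library, and was read by paired-end sequencing.

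A heterotrimeric G protein is made of a Gα subunit, which binds GDP or GTP, and a tightly joined Gβγ pair. An activated receptor makes Gα exchange GDP for GTP. Gα and Gβγ then separate and act on effectors. Gs stimulates adenylyl cyclase, Gi/o inhibits it, Gq/11 activates phospholipase C-β, and G12/13 acts on the cytoskeleton. Most Rgs proteins speed up GTP hydrolysis by Gα and so shorten the signal. In the prostate such receptors mediate contraction of stromal smooth muscle by noradrenaline and secretion under nerve control.

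Between 14816146 and 16555549 reads were counted on genes in each mouse, and 3 counts, taken as the limit of detection, equalled 0.183 to 0.208 CPM (counts of a gene per 1000000 counts, scaled by the TMM method). That limit covers counting error only. Replicate 2 of each group held seminal vesicle transcripts, with a summed level of 10330 CPM in CON 2 and 643 CPM in T + E2 2 against at most 4.11 CPM in the other mice, and CON 2 also had the highest fat markers. The markers of prostate luminal epithelium were present in every mouse, at 34600 to 47790 CPM in the CON group against 6233 to 8213 CPM in the T + E2 group, and 4 of the 7 fell (Pbsn, Tgm4, Cd24a and Krt18). In bulk tissue, fewer cells of a type and less RNA per cell cannot be told apart.

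Low counts left 47 of the 54 members testable, namely 14 Gα, 5 Gβ, 10 Gγ and 18 Rgs genes. Log2 fold changes, T + E2 against CON, came from edgeR's quasi-likelihood test on all 15580 testable genes of the table. P-values were adjusted over all of them, and an adjusted p under 0.05 counted as a change. A DEG also needed an absolute log2 fold change over 1. By this test 4 members rose (Gng12, Rgs13, Gna14 and Rgs2) and 8 fell (Rgs16, Gnal, Gnb4, Gna12, Rgs3, Gnao1, Gnb5 and Gnb2). Over all tested genes 10.4% rose and 9.25% fell. The 4 members that rose were all DEGs, as was Rgs16 among those that fell, beside 4.27% and 3.38% of all tested genes. The 3 T + E2 mice lay above all 3 CON mice for 11 members and below them for 19, beside 20.0% and 20.7% of all tested genes. The median log2 fold change was -0.15 over the 47 members and -0.0021 over all tested genes.

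**Figure D1:**
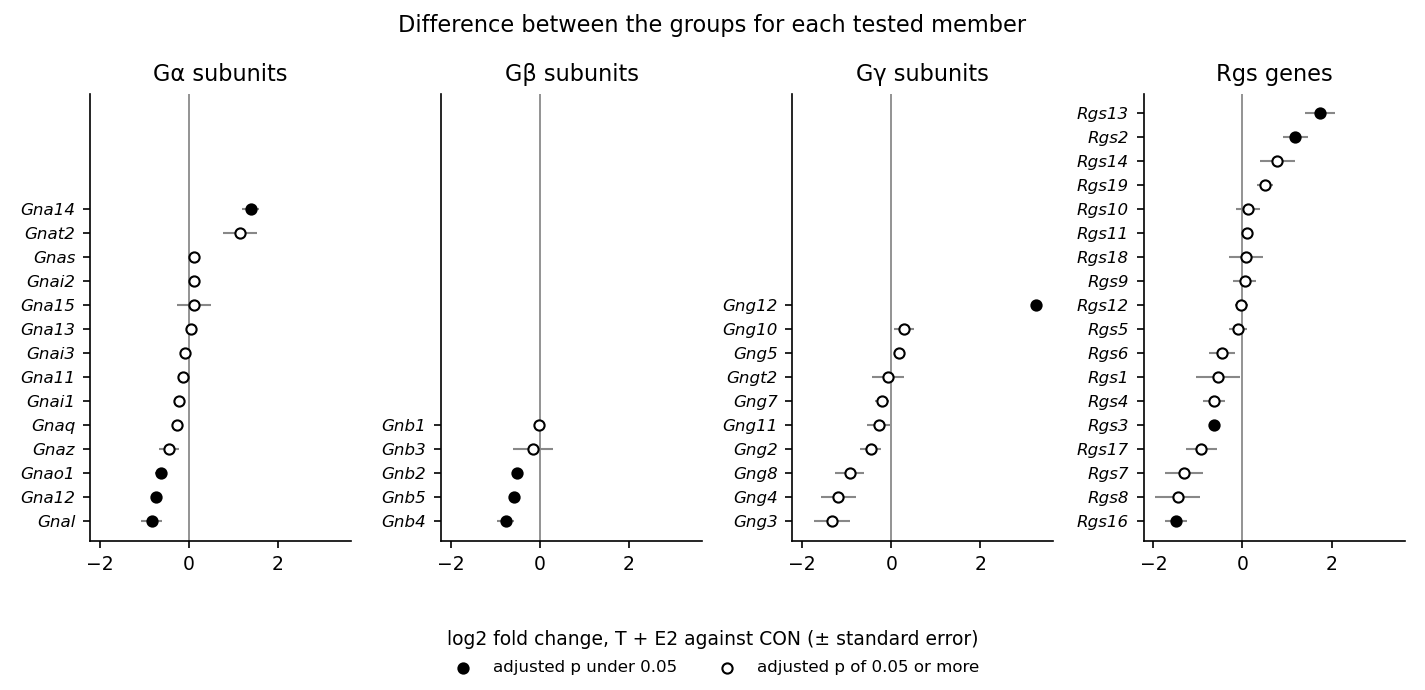
Log2 fold change (T + E2 against CON, horizontal axis) of each tested member, in 4 panels for Gα, Gβ, Gγ and Rgs genes; points are estimates, bars are ± 1 standard error, and filled points have an adjusted p under 0.05. Gng12 stands at 3.26, far to the right of every other member, while the Gβ subunits other than Gnb1 and Gnb3 lie below 0 with filled points.

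The largest difference in the family was that of Gng12, which encodes a prenylated Gγ subunit that is widely expressed. It lies on the plus strand of chromosome 6 (chr6:66896397-67021350, build GRCm38). Its level was 98.1, 86.3 and 82.9 CPM in the CON mice against 905, 868 and 789 CPM in the T + E2 mice. Every hormone-treated mouse was far above every control, and the mice of each group lay close together. The rise was 9.58-fold (log2 fold change 3.26 ± 0.12 SE, adjusted p = 4.56e-06), and the raw counts were 1313 to 1482 in the CON mice against 11822 to 14256 in the T + E2 mice. A noncoding gene on the opposite strand, 4930597O21Rik, shares 125 exon bases with Gng12 and had 0 to 8 counts in the CON mice against 66 to 99 in the T + E2 mice. Whether the counting used strand is not given in the sources used here, so reads of the shared stretch cannot be assigned to either gene. The fall of luminal epithelial markers accompanied the rise of Gng12, and its part in the result was not tested.

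The coding sequence of Gng12 is shown because Gng12 held the largest share of the Gγ pool in the T + E2 mice. It has 219 bases, from GENCODE M21, and is shared by 7 annotated transcripts, while 1 further transcript has a coding sequence of 252 bases. The counts are per gene and do not tell these transcripts apart. Capitals mark the last 4 codons before the stop, which encode the CaaX box at which Gγ subunits are prenylated and so held at the membrane.
Gng12 coding sequence: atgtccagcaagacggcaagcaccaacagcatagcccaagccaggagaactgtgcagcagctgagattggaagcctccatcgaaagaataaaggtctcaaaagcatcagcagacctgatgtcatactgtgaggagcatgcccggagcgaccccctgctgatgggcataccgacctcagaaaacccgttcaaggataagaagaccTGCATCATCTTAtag
RefSeq gives Gng12 more than 1 start site, and the 250 bases before the outermost (chr6:66896147-66896396, plus strand, GRCm38.p6) follow, as the upstream region of the member that rose most. Capitals mark GC boxes, searched as GGGCGG on both strands.
Gng12 upstream region: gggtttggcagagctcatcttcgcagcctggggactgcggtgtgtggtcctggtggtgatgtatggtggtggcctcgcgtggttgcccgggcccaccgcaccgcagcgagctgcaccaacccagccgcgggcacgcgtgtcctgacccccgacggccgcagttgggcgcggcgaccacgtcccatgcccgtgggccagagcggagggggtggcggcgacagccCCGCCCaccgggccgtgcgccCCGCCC
Its GC content was 74.4%, against a median of 52.4% over the upstream regions of 32851 transcripts in the RefSeq table. It held 2 GC boxes, which begin 27 and 6 bases before the start, and 32.7% of all upstream regions held at least 1. The androgen receptor half-site (AGAACA), the oestrogen response element (GGTCA, 3 bases of any kind, then TGACC), the cAMP response element (TGACGTCA), the TATA box (TATAAA) and the CCAAT box had no match in this window on either strand. The region before a second start site (chr6:66896641-66896890, not printed) had a GC content of 75.6% and no match to any of the 6 motifs, GC boxes included.

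**Figure D2:**
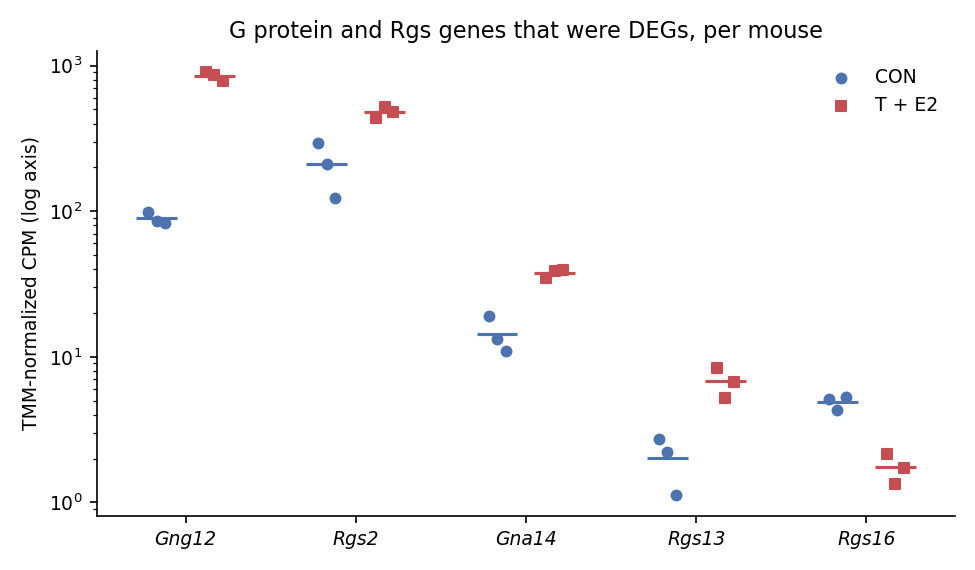
Level of the 5 members that were DEGs in each mouse, in TMM-normalized CPM on a log axis; circles are CON mice, squares are T + E2 mice and horizontal lines are group means. For each gene the groups do not overlap, and the gap is widest for Gng12, at 82.9 to 98.1 CPM against 789 to 905 CPM.

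With Gng12 the composition of the Gγ pool differed between the groups. Levels of different genes were compared as FPKM, the authors' values which are scaled by gene length and library depth. The share of summed Gγ FPKM held by Gng12 was 17.3%, 15.4% and 14.2% in the CON mice against 69.1%, 62.7% and 65.5% in the T + E2 mice. In the CON group Gng5, at 29.0% ± 1.73 (SD, n = 3), was the largest part, followed by Gng10 at 16.0% ± 3.70 and Gng12 at 15.6% ± 1.60, and these last 2 did not differ beyond their spread. In the T + E2 group Gng12 held 65.8% ± 3.21, Gng5 14.3% ± 0.630 and Gng10 8.58% ± 1.33. The share of Gng12 was 50.2 percentage points higher, and an exact two-sided permutation test gave p = 0.1, the smallest value that 3 mice against 3 allow. The summed Gγ FPKM was 53.3 ± 0.318 in the CON group against 118 ± 7.54 in the T + E2 group.

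The gene lengths implied by the FPKM values differed from the merged exons for many members, and how they were made is not given in the sources used here. For 19 of 51 members the implied length exceeded the merged GENCODE exons by over 1.5 times, and the ratio ran from 0.381 (Gnb5) to 2.90 (Rgs19). Per kilobase of merged exons, Gng12 held 26.6% ± 2.32 of the summed Gγ CPM in the CON group against 79.0% ± 2.29 in the T + E2 group. On that scale Gng5 and Gng12 did not differ beyond their spread in the CON mice, at 27.1% ± 2.05 for Gng5.

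The other 9 Gγ genes tested were not called by edgeR, although DESeq2 called Gng3 and Gng4. Gng5, a widely expressed subunit, had 52.9 ± 4.33 CPM in the CON group against 59.4 ± 2.20 CPM in the T + E2 group (log2 fold change 0.17, adjusted p = 0.247). Gng10 had 11.1 ± 2.85 and 13.6 ± 2.98 CPM (0.29, adjusted p = 0.402), and part of its exons coincide with those of the annotated gene Gm20503 on the same strand. A transcript of AC170998.1, not in the table, matches Gng5 at 96.2% over 473 bases, so reads of the pair may be split. The largest differences downwards were those of Gng3 (-1.33, adjusted p = 0.0529), Gng4 (-1.18, adjusted p = 0.0671) and Gng8 (-0.94, adjusted p = 0.0747), subunits best known from neurons. Their T + E2 mice all lay below the CON mice. DESeq2 called Gng3 (adjusted p = 0.00624) and Gng4 (adjusted p = 0.0146), as did limma on log2(FPKM + 1) (adjusted p = 0.0458 and 0.0456), and edgeR without the filter on low counts called Gng3 (adjusted p = 0.0445).

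**Figure D3:**
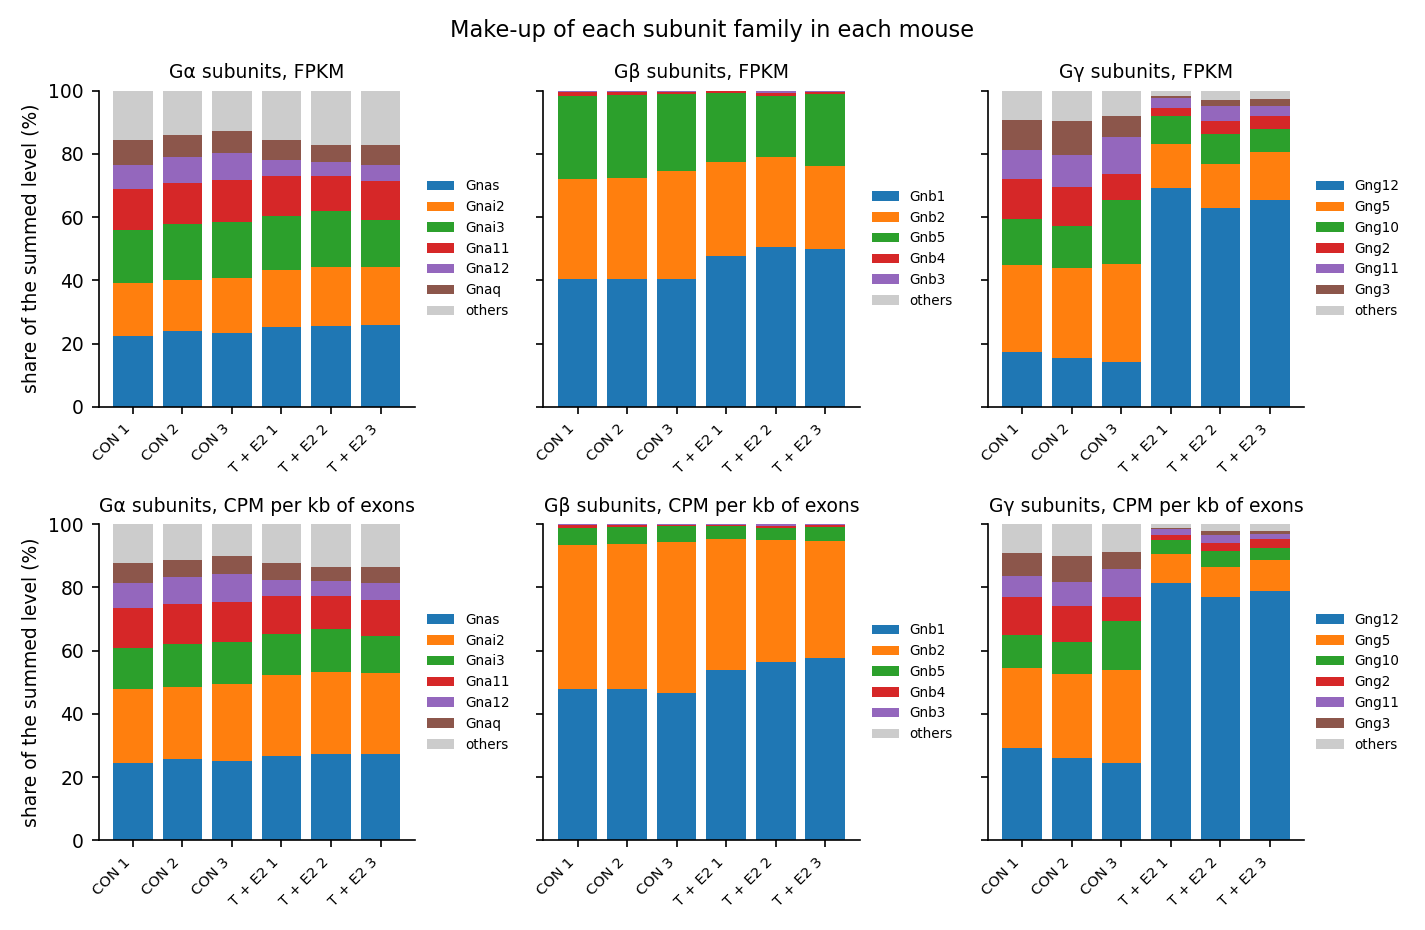
Share (%) of the summed level of each subunit family held by its members in each mouse, from FPKM (upper row) and from CPM per kilobase of merged exons (lower row); each bar is 1 mouse and colours are genes. In the Gγ panels the Gng12 part is 14.2 to 17.3% of FPKM in the CON mice against 62.7 to 69.1% in the T + E2 mice, while Gnas is the largest part of the Gα panels in every mouse.

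Among the Gα subunits 1 of 14 rose and 3 fell, beside 10.4% and 9.25% of all tested genes. Gna14, a member of the Gq/11 class that couples receptors to phospholipase C-β, had 19.1, 13.3 and 10.9 CPM in the CON mice against 35.0, 38.9 and 39.6 CPM in the T + E2 mice. The groups did not overlap. The rise was 2.62-fold (log2 fold change 1.39 ± 0.19 SE, adjusted p = 0.00213). The other members of its class, Gnaq (-0.25, adjusted p = 0.114), Gna11 (-0.14, adjusted p = 0.322) and Gna15 (0.12, adjusted p = 0.859), were not called. Per kilobase of merged exons Gna14 had 4.20 CPM in the CON mice and, after the rise, 11.01 CPM, beside 12.8 for Gnaq and 29.6 for Gna11 in the T + E2 mice. The share of Gna14 in summed Gα FPKM was 2.15% ± 0.668 in the CON group against 5.64% ± 0.415 in the T + E2 group.

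Gna12, a subunit of the G12/13 class, had 68.9, 72.4 and 80.2 CPM in the CON mice against 46.6, 41.1 and 45.9 CPM in the T + E2 mice. It fell by 0.73 ± 0.10 SE on the log2 scale (adjusted p = 0.00198), with no overlap of the groups. Its class partner Gna13 was not called (log2 fold change 0.061, adjusted p = 0.773) and had 61.2 ± 9.89 CPM in the CON group against 63.8 ± 4.76 CPM in the T + E2 group. The difference of Gna12 from Gna13 was not tested. Of 8 smooth muscle markers 3 fell (Acta2, Des and Lmod1) and 5 were not called. Among the latter Myocd had an estimate above 0 (0.50, adjusted p = 0.239). The sum of all 8 markers was 3532 to 4390 CPM in the CON mice against 3073 to 3363 CPM in the T + E2 mice. Their part in the result was not tested. Exons of Gna12 share 456 bases with Amz1 on the opposite strand, which had 11 to 18 counts per mouse.

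Gnao1, the Gα subunit most abundant in brain, had 34.6, 42.5 and 39.3 CPM in the CON mice against 21.2, 25.7 and 28.8 CPM in the T + E2 mice. It fell by 0.62 ± 0.13 SE (adjusted p = 0.0156). Gnal, the olfactory form of Gs, had 8.41, 7.43 and 5.47 CPM in the CON mice against 3.18, 4.81 and 3.94 CPM in the T + E2 mice. It fell by 0.83 ± 0.24 SE (adjusted p = 0.0438). Both calls were fragile, although the groups did not overlap. That of Gnao1 was lost without CON 2 (adjusted p = 0.0542), without CON 3 (0.0508) or without T + E2 2 (0.0506). That of Gnal was lost without any mouse but CON 3, with an adjusted p up to 0.12, and exons of Gnal also share 852 bases with Mppe1 on the opposite strand.

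The abundant Gα subunits were not called. Gnas, which encodes Gs, had 725 ± 32.2 CPM in the CON group against 791 ± 3.22 CPM in the T + E2 group (log2 fold change 0.13, adjusted p = 0.348). Its locus yields several transcripts, some of them noncoding, which a count per gene does not separate. Gnai2 had 231 ± 15.5 and 252 ± 1.90 CPM (0.12, adjusted p = 0.348) and Gnai3 113 ± 5.64 and 107 ± 8.85 CPM (-0.072, adjusted p = 0.637). These are the inhibitory subunits found in most tissues. In FPKM the order was Gnas, Gnai2 and Gnai3, at 48.4, 34.8 and 33.7 over all mice, and Gnai2 and Gnai3 did not differ beyond their spread in the CON group. Per kilobase of merged exons they did, at 61.2 CPM for Gnai2 and 34.6 CPM for Gnai3 in the CON group, while Gnas had 64.8 CPM. Gnat2, the transducin of cone photoreceptors, had 1.32 to 3.21 CPM in the CON mice against 3.27 to 6.43 CPM in the T + E2 mice and was not called (1.16, adjusted p = 0.0679), although DESeq2 called it (adjusted p = 0.0301).

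By coupling class, G12/13 held 13.01% ± 0.491 of the summed Gα FPKM in the CON group against 10% ± 0.568 in the T + E2 group, and Gs 23.9% ± 0.610 and 25.9% ± 0.354. For both classes the groups did not overlap (exact two-sided permutation p = 0.1 each). Gi/o held 40.5% ± 1.09 and 40.3% ± 1.57 (exact p = 0.9) and Gq/11 22.5% ± 1.07 and 23.8% ± 1.05 (exact p = 0.2), differences of the size of the spread between mice. These 4 classes were compared at the same time, and a test that cannot go below 0.1 leaves none of them past a threshold.

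Of the 5 Gβ subunits 3 fell, beside 9.25% of all tested genes. Gnb2 had 174, 176 and 207 CPM in the CON mice against 139, 129 and 122 CPM in the T + E2 mice. Gnb2 is a widely expressed Gβ subunit, and it fell by 0.51 ± 0.10 SE (adjusted p = 0.0111). Gnb5 had 19.0, 19.0 and 19.2 CPM in the CON mice against 13.4, 11.4 and 13.7 CPM in the T + E2 mice, and fell by 0.57 ± 0.12 SE (adjusted p = 0.0116). Gnb4 had 10.9, 8.21 and 7.86 CPM in the CON mice against 4.64, 5.97 and 5.21 CPM in the T + E2 mice, and fell by 0.77 ± 0.19 SE (adjusted p = 0.028). The ranges were apart for all 3 genes. The call of Gnb4 was lost without CON 1, T + E2 1 or T + E2 3 (adjusted p 0.0657 to 0.084). Without replicate 2 of both groups the calls of all 3 genes were lost, at -0.54 for Gnb2 (adjusted p = 0.0688), -0.50 for Gnb5 (0.0866) and -0.93 for Gnb4 (0.0815).

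Gnb1, a widely expressed Gβ subunit with the highest FPKM of the 5, had 237 ± 12.1 CPM in the CON group against 234 ± 4.24 CPM in the T + E2 group and was not called (log2 fold change -0.020, adjusted p = 0.89). Gnb3 was near the limit of detection, at 0.484 to 1.71 CPM over the 6 mice. The share of Gnb1 in summed Gβ FPKM was 40.4% ± 0.0552 in the CON group against 49.3% ± 1.52 in the T + E2 group, and that of Gnb2 was 32.6% ± 1.47 and 28.3% ± 1.71. Gnb5 held 25.6% ± 1.16 and 21.2% ± 1.71 of FPKM but 5.23% ± 0.317 and 4.20% ± 0.404 per kilobase of merged exons, since the authors' length for it is far below the merged exons. On the latter scale Gnb1 (47.4% ± 0.801) and Gnb2 (46.4% ± 1.34) did not differ beyond their spread in the CON group, whereas they held 56.0% ± 1.80 and 39.0% ± 2.02 in T + E2 mice. The summed Gβ FPKM was 63.5 ± 2.20 in the CON group against 50.02 ± 1.35 in the T + E2 group.

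Of the Rgs genes, 2 of 18 rose and 2 fell, shares near the 10.4% and 9.25% of all tested genes. Rgs2, whose product acts mainly on Gq and is known for limiting the action of vasoconstrictors, was the most abundant Rgs gene. It had 296, 209.8 and 123 CPM in the CON mice against 438, 517 and 477 CPM in the T + E2 mice. The CON mice spread widely, but every T + E2 mouse lay above them. The rise was 2.28-fold (log2 fold change 1.19 ± 0.27 SE, adjusted p = 0.0203). The call was lost without CON 2 (adjusted p = 0.0518), T + E2 2 (0.0684) or T + E2 3 (0.0514), with a fold change close to that of all mice.

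Rgs13, whose product is best known from mast cells and germinal centre B cells, had 2.72, 2.23 and 1.13 CPM in the CON mice against 8.37, 5.24 and 6.74 CPM in the T + E2 mice. It rose 3.34-fold (log2 fold change 1.74 ± 0.34 SE, adjusted p = 0.00958) on raw counts of 18 to 41 in the CON mice against 86 to 121 in the T + E2 mice. Mast cell markers were present at 23.95 to 34.6 CPM in the CON mice against 12.8 to 20.6 CPM in the T + E2 mice, and 2 of 4 fell (Mcpt4 and Kit). Lymphocyte markers summed to 4.53 to 9.34 CPM in the CON mice against 8.88 to 13.01 CPM in the T + E2 mice, and of 5 tested only Cd79b of the B cell receptor rose (log2 fold change 2.11, adjusted p = 0.00565). Tuft cell markers summed to 36.5 to 50.2 CPM and 14.9 to 20.02 CPM, 2 of 4 tested fell (Pou2f3 and Avil), and Il25 and Trpm5 had at most 3 counts in every mouse. The part of these cell types in the rise of Rgs13 was not tested.

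Rgs16, a regulator of Gi and Gq that many stimuli induce, was the only lower DEG among the members by edgeR, where DESeq2 gave 4 and edgeR without the filter 2. It had 5.10, 4.34 and 5.28 CPM in the CON mice against 2.14, 1.34 and 1.74 CPM in the T + E2 mice. The groups were well apart. The level was 2.82-fold lower (log2 fold change -1.50 ± 0.24 SE, adjusted p = 0.00437), on raw counts of 66 to 84 and 22 to 31. Rgs3, which acts on Gi and Gq, had 30.8, 30.9 and 30.4 CPM in the CON mice against 19.8, 19.6 and 19.6 CPM in the T + E2 mice. The mice within each group lay very close together, and Rgs3 fell by 0.64 ± 0.086 SE (adjusted p = 0.00186). A processed pseudogene, Gm5763, not in the table, matches an Rgs3 transcript at 99.8% over 1410 bases, so some reads may have been placed on either copy.

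The upstream regions of the 3 Rgs genes that were DEGs are shown because their base composition differed. Capitals mark the motif matches, on either strand.
Rgs2 upstream region (chr1:144004150-144004399, minus strand): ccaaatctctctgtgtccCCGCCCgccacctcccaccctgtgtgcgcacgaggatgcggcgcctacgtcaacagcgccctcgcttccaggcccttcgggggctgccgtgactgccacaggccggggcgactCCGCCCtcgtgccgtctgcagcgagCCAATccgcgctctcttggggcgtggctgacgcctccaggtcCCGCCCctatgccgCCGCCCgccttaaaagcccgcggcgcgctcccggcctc
Rgs13 upstream region (chr1:144177373-144177622, minus strand): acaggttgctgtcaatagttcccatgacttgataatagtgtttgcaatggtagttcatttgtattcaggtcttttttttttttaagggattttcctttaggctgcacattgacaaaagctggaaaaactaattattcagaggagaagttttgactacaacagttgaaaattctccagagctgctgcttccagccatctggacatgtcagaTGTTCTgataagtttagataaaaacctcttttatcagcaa
Rgs16 upstream region (chr1:153740103-153740352, plus strand): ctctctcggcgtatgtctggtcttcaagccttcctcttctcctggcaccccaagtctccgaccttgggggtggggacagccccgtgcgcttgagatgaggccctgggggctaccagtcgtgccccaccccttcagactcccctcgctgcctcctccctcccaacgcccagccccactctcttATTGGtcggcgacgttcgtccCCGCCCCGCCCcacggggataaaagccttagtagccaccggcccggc
The region of Rgs2 had a GC content of 72.4%, with 4 GC boxes and 1 CCAAT box. That of Rgs16 had 66.4%, with 2 overlapping GC boxes and 1 CCAAT box, and 33.8% of all upstream regions held a CCAAT box. That of Rgs13 had 36.0% and held 1 androgen receptor half-site, found as TGTTCT and beginning 40 bases before the start, a motif that 16.1% of all upstream regions held. Upstream of Gna14 the GC content was 60.0% and none of the 6 motifs had a match. A match is a run of letters and says nothing of whether a factor binds there.

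The other abundant Rgs genes were not called. Rgs5, a marker of pericytes, had 23.6, 29.2 and 19.5 CPM in the CON mice against 19.8, 28.5 and 19.1 CPM in the T + E2 mice (log2 fold change -0.10, adjusted p = 0.757), and the sign of this small value turned without CON 2 or T + E2 3. Of the 5 pericyte markers 2 rose (Notch3 and Abcc9) and 2 fell (Pdgfrb and Cspg4), with sums of 88.2 to 102 CPM in the CON mice against 108 to 120 CPM in the T + E2 mice. Rgs11 had 26.1 ± 1.08 CPM in the CON group against 27.9 ± 1.04 CPM in the T + E2 group (0.10, adjusted p = 0.463). By FPKM Rgs2, at 73.0 over all mice, stood far above Rgs5 at 5.02 and Rgs11 at 2.90. Per kilobase of merged exons Rgs2 was again far above, at 94.7 CPM, but the order of Rgs5 (5.12 CPM) and Rgs11 (6.42 CPM) turned.

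Gβ5 differs from the other Gβ subunits in that it pairs with Rgs6, Rgs7, Rgs9 and Rgs11, the R7 family, in place of a Gγ subunit, and Rgs7bp anchors the pair at the membrane. Gnb5 fell, as given above. Of its partners Rgs7 had 5.56, 4.67 and 4.02 CPM in the CON mice against 0.692, 2.92 and 2.07 CPM in the T + E2 mice and was not called by edgeR (log2 fold change -1.31, adjusted p = 0.0678). DESeq2 (adjusted p = 0.0236) and limma on log2(FPKM + 1) (adjusted p = 0.0446) called it. Rgs6 (-0.46, adjusted p = 0.301), Rgs9 (0.051, adjusted p = 0.909) and Rgs11 were not called either. Rgs7bp had 7.62, 11.8 and 6.35 CPM in the CON mice against 39.7, 51.6 and 38.9 CPM in the T + E2 mice, and rose 5.05-fold (2.34 ± 0.23 SE, adjusted p = 4.54e-04). The subunit and its anchor thus changed in opposite directions.

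The level of nerve markers differed between the groups and among the T + E2 mice. The summed level of 9 nerve and Schwann cell markers was 330, 323 and 262 CPM in the CON mice against 77.5, 166 and 158 CPM in the T + E2 mice, and 7 of the 9 fell, Sox10 (log2 fold change -1.66, adjusted p = 0.00259) among them. The lowest mouse, T + E2 1, was also the lowest for Gng3, Gng4, Rgs7, Rgs8, Rgs17, Gnal and Gnao1. Of these edgeR called Gnal and Gnao1 alone (Rgs17 had a log2 fold change of -0.92, adjusted p = 0.101). This order, with T + E2 1 the lowest of its group, also held for some other members, by unlike margins. Gng2 had 15.8, 27.5 and 27.2 CPM in the T + E2 mice. The gap was smaller for Gnb4, and for Gna14 and Rgs2, which rose. The T + E2 mice were nearly equal for Gnas (788.8, 789.0 and 794.5 CPM) and Gnb1 (229.5, 234.3 and 237.9 CPM). Gng3 had 8.54, 9.33 and 6.22 CPM in the CON mice against 1.25, 4.32 and 3.94 CPM in the T + E2 mice. Gng4 had 8.54, 8.08 and 6.98 CPM and then 1.38, 4.93 and 4.004 CPM. Without T + E2 1 the spread within the group was smaller and edgeR called both, at -0.96 for Gng3 (adjusted p = 0.0407) and -0.81 for Gng4 (adjusted p = 0.0451). Other members did not follow this order. Rgs16, Gna12 and Gnb5 were lowest in T + E2 2, and Gng8, Gnb2 and Rgs3 in T + E2 3. The part of nerve tissue in these values was not tested. Exons of Gng3 share 398 bases with Bscl2 on the opposite strand, which had 902 to 1044 counts in the CON mice against 1566 to 1648 in the T + E2 mice.

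**Figure D4:**
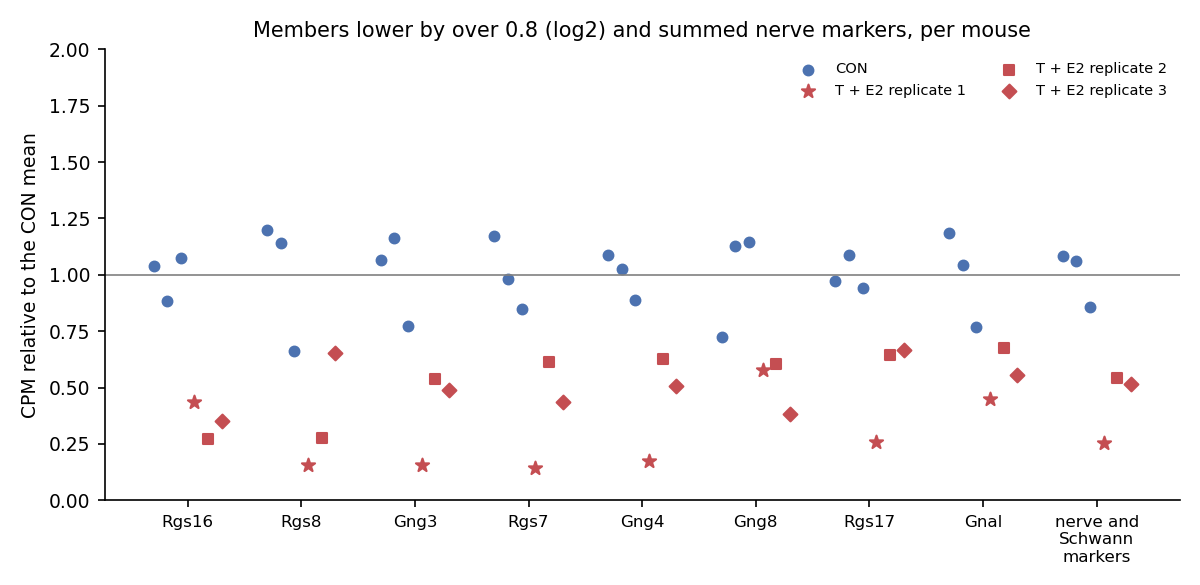
Level of the 8 tested members with a log2 fold change below -0.8 and the summed nerve and Schwann cell markers, in each mouse, as CPM divided by the mean of the CON group (vertical axis, no unit); circles are CON mice, and the star, square and diamond are T + E2 replicates 1, 2 and 3. The star (T + E2 1) is lowest for Rgs8, Gng3, Rgs7, Gng4, Rgs17, Gnal and the nerve markers, and not for Rgs16 or Gng8.

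Some members lie side by side in the genome, with like results for some neighbours and unlike results for others. Rgs2, Rgs13, Rgs1, Rgs21 and Rgs18 follow each other on chromosome 1, from base 143999338 to base 144775435. Of these Rgs2 and Rgs13 rose, Rgs1 (log2 fold change -0.55, adjusted p = 0.474) and Rgs18 (0.081, adjusted p = 0.9) were not called, and Rgs21 had no count in any mouse. Gnaq and Gna14 are neighbours on chromosome 19 (chr19:16132831-16387463 and chr19:16435667-16610818, both on the plus strand), and Gna14 alone was called. Rgs8 (chr1:153653025-153700323) and Rgs16 (chr1:153740349-153745468) had similar estimates, of -1.45 and -1.50, but Rgs8 had 3 to 24 counts per mouse and was not called (adjusted p = 0.0808). Gnat2 and Gnai3, on chromosome 3, had estimates of 1.16 and -0.072, and neither was called.

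Genes that act with the members were counted from 3 lists, beside the 10.4% of all tested genes that rose and the 9.25% that fell. Of 26 tested effectors 1 rose and 6 fell. Adcy1, an adenylyl cyclase, fell from 9.60 ± 0.977 to 4.02 ± 0.434 CPM (log2 fold change -1.25, adjusted p = 0.0021), and Prkar1b, a regulatory subunit of protein kinase A, from 36.2 ± 4.73 to 15.4 ± 6.02 CPM (-1.23, adjusted p = 0.0178). Adcy3 fell (-0.77, adjusted p = 0.0245), and Pik3cg, the phosphoinositide 3-kinase that Gβγ activates, rose from 7.83 ± 1.19 to 15.2 ± 3.33 CPM (0.96, adjusted p = 0.0123). Prkar1b, expressed mainly in neurons, was lowest in T + E2 1, at 8.58 CPM. The median log2 fold change of the effectors was -0.11. Only 2 effectors fell without CON 2, CON 3 or T + E2 1, and 3 without T + E2 2.

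Of 17 tested regulators other than Rgs genes 4 rose and 2 fell. Besides Rgs7bp, those that rose included Rasd1 and Grk5. Rasd1, a Ras-like protein induced by glucocorticoids, rose from 24.9 ± 4.71 to 118 ± 13.7 CPM (log2 fold change 2.25, adjusted p = 8.92e-05). Grk5 is a kinase that desensitises receptors (0.73, adjusted p = 0.0139). Rasd2, a relative of Rasd1, fell (-1.12, adjusted p = 0.00682). Of 44 tested receptors of prostate muscle, vessels and epithelium 6 rose and 6 fell, shares near those of all tested genes. Agtr1a, the angiotensin II receptor that couples to Gq, rose from 158 ± 34.6 to 474 ± 42.0 CPM (1.59, adjusted p = 6.45e-04), and the relaxin receptor Rxfp1 rose (3.03, adjusted p = 0.00684) from a level near the limit of detection. The muscarinic receptor Chrm1 fell from 38.7 ± 4.56 to 3.71 ± 0.663 CPM (-3.38, adjusted p = 1.66e-05) and the prostaglandin E receptor Ptger3 from 35.9 ± 5.53 to 5.38 ± 0.854 CPM (-2.74, adjusted p = 4.41e-05). Only 2 regulators rose without T + E2 2, 1 fell without T + E2 1, and 3 receptors rose without CON 3.

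Of the remaining members 7 gave little or no signal. Gnat1 and Gnat3, the transducin of rods and gustducin of taste cells, Gng13, Gngt1 and Rgs21 had at most 3 counts in every mouse, and Rgs20 and Rgs22 had up to 11 and 6 counts. These 7 genes were not tested, and a level below 0.183 to 0.208 CPM was not detectable at this depth. Of the 47 tested members 35 were not called. The tested members with no estimate given above were Gnai1, Gnaz, Gnb3, Gng2, Gng7, Gng11, Gngt2, Rgs4, Rgs10, Rgs12, Rgs14 and Rgs19. Their estimates lay between -0.64 (Rgs4) and 0.79 (Rgs14).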

How the data were processed

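RNA-seq libraries of 6 mouse prostates (TruSeq kit, total RNA, paired ends) were analysed from the table the authors deposited. It holds whole-number read counts per gene without normalization, and FPKM values that the authors computed from those counts. The submitters' processing notes name TopHat, Bowtie2 and HTSeq. Versions, annotation and strand setting are not given in the sources used here. Coordinates lie on GRCm38. Groups and replicate numbers came from the sample labels, and the study's methods give 1 mouse per library. Replicates differed by more than sampling noise (chi-square per degree of freedom 17.8 to 39.0).

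The groups were compared on the counts with edgeR 4.0.16 under R 4.3.3 (filterByExpr with minimum count 10 and minimum total 15, TMM, glmQLFit, glmQLFTest, Benjamini-Hochberg adjustment over 15580 genes). The standard error of a log2 fold change was taken as its size over the square root of F. The script was tested on simulated data. Shares were compared by exact two-sided permutation (scipy 1.17.1). Alternatives were DESeq2 1.42.0, limma 3.58.1 on log2(FPKM + 0.1) and log2(FPKM + 1) where FPKM reached 0.1 in 3 mice, other scalings, no filter, a replicate block, mice left out and other units for shares. GENCODE M21 and RefSeq gave exons, overlaps and sequences. Of the 54 members 40 had an upstream region in the RefSeq table, and BLAST+ 2.17.0+ matched transcripts of 90% identity over 300 bases or longer. Plots used matplotlib 3.10.9 in Python 3.11.15.

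Named genes are the members that changed, the 3 members of each class with the highest FPKM, untested members and up to 4 changed genes of each pathway list with the largest fold change. Other members were named after their values were seen. The members, lists and tests were chosen with earlier results of these data known. Genes with similar transcripts or overlapping exons are uncertain where stated.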

Additional observations from a re-analysis of the deposited data

How the results depend on the processing

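Of the 12 members called, 6 (Gng12, Gna14, Rgs13, Rgs16, Gna12 and Rgs3) were called under every alternative, which were DESeq2, limma, other scalings, no filter, the replicate block and mice left out. Their log2 fold changes ranged from 3.08 to 3.33 for Gng12, 1.20 to 1.64 for Gna14, 0.98 to 2.01 for Rgs13, -1.67 to -0.85 for Rgs16, -0.78 to -0.67 for Gna12 and -0.68 to -0.43 for Rgs3. For 39 genes followed under 544 alternative values, 492 kept direction and side of the threshold, 37 lost their call, 12 gained one and 3 changed sign, namely Gnb1 without CON 3 (0.023, in a range of -0.044 to 0.023 with each mouse left out) and Rgs5 without CON 2 (0.059) or T + E2 3 (0.0025), in a range of -0.31 to 0.059.

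Leaving out replicate 2 of both groups, chosen after seeing the seminal vesicle transcripts, left 2 mice a group, and 3 members, 1 effector, 0 regulators and 2 receptors fell while 0 effectors rose. Gnal, Gnao1, Gnb2, Gnb4, Gnb5 and Rgs2 lost their calls, in a fit with fewer mice. At an unadjusted p under 0.05 the same edgeR fit counted 1 effector that was higher (Pik3cg, adjusted p = 0.0868) and 2 regulators that were lower. No other tool was run on these 4 mice. The number of members that were DEGs and lower was 4 with DESeq2, 2 without the filter and 1 to 2 with a mouse left out. With a mouse left out, 1 to 2 effectors rose and 2 to 5 fell, 2 to 4 regulators rose and 1 to 2 fell, and 3 to 6 receptors rose.

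The replicate numbers name different mice, and same-numbered mice did not deviate together (correlations -0.052, 0.028 and 0.046). With the replicate block 10 members were called in place of 12, without Gnal and Gnb4, and 2 effectors and 1 regulator fell. Only T + E2 3 correlated best with the mouse of its own number, at 0.046 with CON 3 against 0.042 with CON 2.

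For shares in percentage points, Gs differed by 3.07 in CPM. Without Gnas that class holds Gnal alone, so its difference of -0.342 is that of Gnal and does not check the Gs share. Gi/o differed by 1.30 without Gnas, 0.632 per kilobase of merged exons and -0.965 to 0.603 with a mouse left out, beside -0.210 as given. Gq/11 differed by -0.587 in CPM and 2.57 without Gnas, G12/13 by -1.90 in CPM, and Gnb2 by -7.05 in CPM and -7.39 per kilobase of merged exons. The causes were not tested. With 3 mice a group, genes near the limit of detection could be tested only for large differences.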
